A study of Homo sapiens with 2 samples.

Results

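The clustered protocadherin genes are 3 tandem arrays of cell adhesion genes on human chromosome 5, named alpha, beta and gamma. The members were taken as the protein-coding genes of that chromosome whose symbols begin with PCDHA, PCDHB and a number, or PCDHGA, PCDHGB or PCDHGC. This gave 53 of 19974 protein-coding genes on chromosomes 1 to 22 and X: 15 alpha, 16 beta and 22 gamma genes. They lie between positions 140786140 and 141512975 of GRCh38, a locus of 727 kb. R-loops, in which an RNA strand pairs with 1 strand of the DNA duplex, were mapped in A549, a human lung carcinoma cell line, wild type and with no treatment named. In the assay, CUT&Tag, an antibody directs a transposase to cut and tag the DNA around its target. There was 1 library with S9.6, an antibody against RNA-DNA hybrids, and 1 with IgG, with no replicate of either. The S9.6 peak list of 47810 peaks was examined. IgG was not analysed here, and RNA levels of the members were not examined.

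Clustered protocadherins are cadherin-like surface proteins through which neurons tell their own branches from those of other cells. In the alpha and gamma clusters each gene has its own promoter and a large first exon for the extracellular part, which is spliced to constant exons shared by the whole cluster. Beta genes lack such constant exons. In neurons most promoters are chosen at random in each cell, with CTCF, cohesin and DNA methylation taking part, whereas the C-type genes at the end of the alpha and gamma clusters are used more uniformly. The C-type genes here were PCDHAC1, PCDHAC2, PCDHGC3, PCDHGC4 and PCDHGC5, and the other 48 members are called alternate members.

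Each member has a promoter of its own, so promoter sequences are given first. RefSeq promoters of GRCh38.p14, from 250 bp before to 50 bp after the start, were matched for 47 of the 53 members, all on the plus strand. PCDHA3, PCDHA13, PCDHB6, PCDHB11, PCDHGA12 and PCDHGC5 had no entry. Many of these promoters share a conserved element with the core CGCT. The following stretches of 28 bases, 5′ to 3′ on the plus strand, have this core in capitals and are shown for the first and last matched members of each cluster, the C-type members and PCDHB13.
PCDHA1: attggccacatgatgtCGCTgtacacca
PCDHAC1: gcctagaaggtgtggtCGCTcacgttca
PCDHAC2: ctgagcagtccgggttCGCTgtccgcca
PCDHB1: gactggggagttgagtCGCTcaatgcaa
PCDHB13: tgaggacgcgtggtggCGCTgcaggata
PCDHB15: agacaacgcatggtggCGCTgcaggcta
PCDHGA1: ttaggactgtgggcgcCGCTgttcacta
PCDHGC3: ctgggactctgtgtgcCGCTgtcggcca
PCDHGC4: ggctgagcccgggagcCGCTgtctgcca

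Where a promoter held several cores, the stretch shown was the most similar to those of the 31 members with a single core that had room for a stretch. The core was found in 46 of the 47 promoters (97.9%) when both strands were searched, against 70.1% of all 34961 promoters of the same length. Among 15812 protein-coding genes with 1 promoter each, as for the members, it was 81.0%. PCDHA9 was the exception, named after its sequence was seen. On the sense strand alone the core was in 97.9% of the members' promoters, 54.4% of all promoters and 65.0% of protein-coding ones. A core of 4 bases is short, so the bases around it were compared as well. Over the 24 other positions, alternate members matched the single-core members at a median of 53.1% of positions, with a range of 22.9% to 61.0%. PCDHGC3 matched at 51.6%, PCDHGC4 at 41.8%, PCDHAC2 at 37.8% and PCDHAC1 at 25.1%. PCDHB1, the first gene of the beta cluster, matched at 29.4%. The reference stretches came from the members themselves, so the comparison favours members over other genes. Among 34909 promoters of other genes, the best stretch reached the alternate members' median in 1. In 18226 of these promoters that held such a stretch, the median was 28.5%. The stretches of PCDHAC1 and PCDHB1 thus lay near the median of promoters elsewhere. PCDHGB7, with 22.9%, was the lowest of the alternate members.

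The S9.6 list placed 9 peaks over the 727 kb locus when each peak was counted once. They fell unevenly. The alpha cluster held 6 of them, the beta cluster 1 and the gamma cluster 1, and the remaining peak lay between the beta and gamma clusters. All 6 alpha peaks lay downstream of the start of PCDHAC1. Values in the peak list are raw: the maximum coverage is the highest number of overlapping fragments in a peak, and the total signal is the coverage summed over its bases. Neither showed a scaling to sequencing depth, and the read total is unknown.

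**Figure D1:**
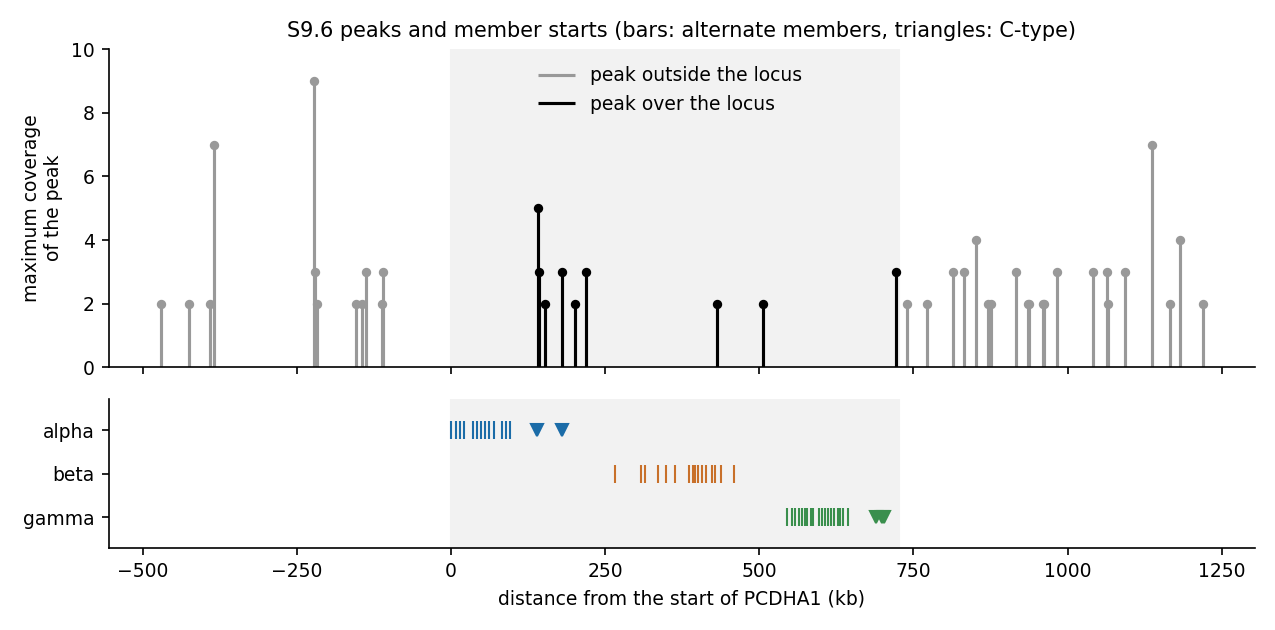
The upper panel plots S9.6 peaks by their distance from the start of PCDHA1 in kb against their maximum coverage, with the locus shaded, and the lower panel marks the starts of the 53 members. The 9 locus peaks reach 2 to 5, 6 of them lie between the start of PCDHAC1 and the end of the alpha cluster, and taller peaks of 7 and 9 stand in the flanks.

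PCDHAC1, a C-type gene of the alpha cluster, had the highest peak of the locus. Its first peak, at chr5:140926572-140926996, began 273 bp after the start of the gene, was 425 bp wide, reached a maximum coverage of 5 and summed to a total signal of 1322. Of all peaks on chromosomes 1 to 22 and X, 9.54% reached 5. A second peak at chr5:140927477-140928878 followed after 0.480 kb. It spanned 1402 bp, with a maximum of 3 and a total of 1482, the highest total of the 9. Another lay at chr5:140938808-140939248, with its highest coverage centred 12.7 kb after the start, and had a maximum of 2 and a total of 791. PCDHAC1 thus carried a group of peaks that began just inside the gene and not on its upstream side. The first of these peaks covered 0 of the 300 bases of the matched promoter.

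PCDHAC2, the last gene of the alpha cluster and also C-type, had its peak directly on its start. The peak at chr5:140966050-140967056 was 1007 bp wide, with a maximum of 3 and a total of 1284. The region of highest coverage ran from 11 to 26 bp after the start. The peak as a whole covered 300 of the 300 bases of the promoter, and the promoters of both genes are printed because the peaks lie differently in them. The capitals mark bases inside an S9.6 peak, so PCDHAC1 (chr5:140926049-140926348) is in lower case throughout and PCDHAC2 (chr5:140966226-140966525) in capitals throughout.
PCDHAC1: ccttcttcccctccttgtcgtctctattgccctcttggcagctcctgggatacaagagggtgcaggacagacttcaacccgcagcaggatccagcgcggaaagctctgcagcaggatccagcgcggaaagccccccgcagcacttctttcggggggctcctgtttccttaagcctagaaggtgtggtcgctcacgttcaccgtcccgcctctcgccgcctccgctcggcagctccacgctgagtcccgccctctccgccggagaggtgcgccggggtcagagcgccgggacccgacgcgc
PCDHAC2: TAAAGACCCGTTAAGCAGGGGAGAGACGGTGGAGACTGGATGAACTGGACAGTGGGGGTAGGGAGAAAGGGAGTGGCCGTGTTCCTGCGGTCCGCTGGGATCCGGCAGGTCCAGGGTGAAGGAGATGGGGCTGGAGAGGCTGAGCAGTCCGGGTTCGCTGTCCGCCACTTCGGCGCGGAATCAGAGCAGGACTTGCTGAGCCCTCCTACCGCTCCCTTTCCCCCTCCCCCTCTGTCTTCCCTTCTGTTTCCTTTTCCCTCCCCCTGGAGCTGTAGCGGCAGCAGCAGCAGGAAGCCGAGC

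Both promoters were rich in G and C, with a GC content of 66.0% in PCDHAC1 and 63.0% in PCDHAC2. They differed in strand asymmetry. GC skew, the excess of G over C on the sense strand divided by their sum, was -0.13 in PCDHAC1 and 0.09 in PCDHAC2. R-loops are known to favour transcribed DNA whose non-template strand is rich in G. The first PCDHAC1 peak covered 0 bases of its promoter, so that skew does not describe the DNA under the peak. Skew under the peaks was not computed. The CpG ratio, observed over that given by the C and G content, was 0.841 in the PCDHAC1 promoter and 0.508 in that of PCDHAC2.

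The other alpha peaks lay in the part that all alpha transcripts share. RefSeq places the constant region of the alpha cluster at chr5:140978949-141012344. It held 2 peaks. The peak at chr5:140986009-140986709 had a maximum of 2 and a total of 1128, and the peak at chr5:141004123-141004669 had 3 and 968. Their regions of highest coverage were centred 19.9 kb and 37.8 kb after the start of PCDHAC2. The table used here gives no exons, so whether these peaks cover exons or introns was not determined.

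From the start of PCDHA1 to that of PCDHAC1, 140 kb holding the starts of PCDHA1 to PCDHA13, the list had 0 peaks. The exact 95% Poisson upper limit for that stretch is 2.63 peaks per 100 kb. From PCDHAC1 to the end of the cluster, 86.0 kb held 6 peaks, or 6.97 per 100 kb (2.56 to 15.2). These intervals cover counting error only. The division at the start of PCDHAC1 was not among the planned comparisons and lies 273 bp before the first alpha peak. Setting the intervals side by side is therefore no test of a difference. The stretch without a peak was longer than the first alpha genes: it began 251 kb before the first PCDHAC1 peak, upstream of PCDHA1. On chromosome 5, 9.15% of 2076 distances between neighbouring peaks were at least as long, and the median distance was 27.3 kb. This share counts distances and not bases. Long distances take up a larger share of the chromosome's length than of this count.

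Among 16 beta genes PCDHB13 alone had a peak over its span (6.25%, 95% Wilson interval 1.11 to 28.3), against a background of 60.4% of all protein-coding genes. The peak lay at chr5:141217119-141217780, with a maximum of 2 and a total of 910. It began 3200 bp after the start of the gene and ended 1199 bp before its end, so it was counted at neither boundary. The other 15 beta genes had 0 peaks within 1000 bp of their spans, PCDHB1 and PCDHB15 included. From PCDHB1 to PCDHB13, 14 starts lay in a stretch of 212 kb without a peak. A peak at chr5:141292133-141292829, with a maximum of 2 and a total of 906, lay 46.8 kb after the start of PCDHB15 and outside every member. The genes between the beta and gamma clusters, the mitochondrial carrier gene SLC25A2 and TAF7, which encodes a subunit of the TFIID complex, had no peak.

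The gamma cluster held a single peak, at chr5:141506955-141507705, with a maximum of 3 and a total of 1244. It lay 18.4 kb after the start of PCDHGC5, the last gamma gene, and ended 5270 bp before the shared end of the cluster. The starts of all 22 gamma genes, from PCDHGA1 to PCDHGC5, lay in a stretch of 214 kb without a peak. Counted by number and not by length, 10.6% of the distances on chromosome 5 were at least as long, against 10.9% for the beta stretch. Together, 3 stretches of over 200 kb held the starts of 50 of the 53 members. These include PCDHAC1, whose start lies at the end of the alpha stretch, 273 bp before its first peak. The C-type genes thus split: PCDHAC1 and PCDHAC2 had peaks at their starts, whereas PCDHGC3, PCDHGC4 and PCDHGC5 did not. This difference of 2 of 2 against 0 of 3 was not tested, since the genes belong to 1 library.

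How a peak is counted decides what these genes look like. By span, meaning the gene with 1000 bp added at each end, 38 of 53 members had a peak (71.7%, 95% Wilson interval 58.4 to 82.0), against a background of 60.4% of all 19974 protein-coding genes. Spans of alpha and gamma genes overlap, because each runs from its own first exon to the shared last exon. The 8 peaks over spans were therefore counted 110 times: each of the 14 alpha genes from PCDHA1 to PCDHAC1 was given 6 peaks, PCDHAC2 3, each gamma gene 1 and PCDHB13 1. When each peak was instead given to the member whose start precedes it most closely, PCDHAC1 and PCDHAC2 had 3 each and PCDHB13, PCDHB15 and PCDHGC5 had 1 each. The segments of the other 48 members were empty. Segments differ in length, and longer ones have more room for peaks. They measured 40.2 kb for PCDHAC1, 84.9 kb for PCDHAC2, 9.42 kb for PCDHB13, 85.1 kb for PCDHB15 and 23.9 kb for PCDHGC5. Empty segments ran from 3.37 kb in PCDHGB7 to 45.5 kb in PCDHGA12. No such segments were made for other genes, so these counts have no background.

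**Figure D2:**
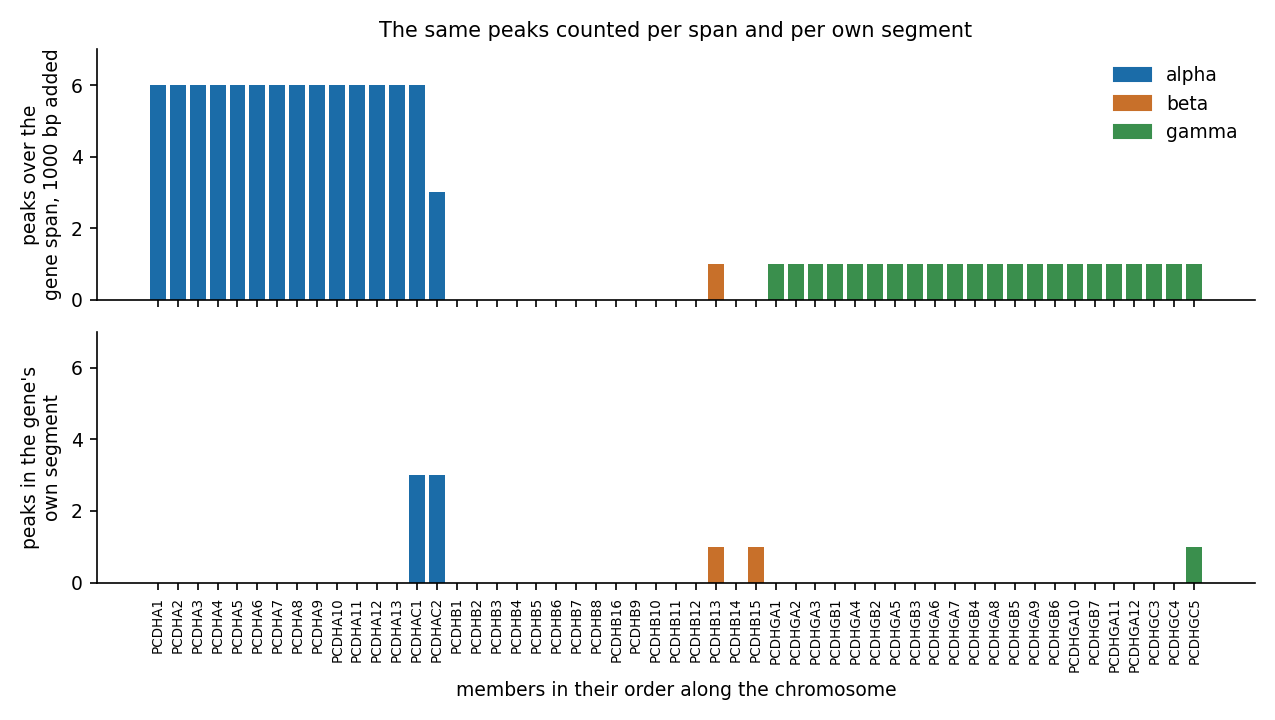
Bars give the number of S9.6 peaks for each of the 53 members in chromosomal order, counted over the whole gene span in the upper panel and in the gene's own segment, up to the next member's start, in the lower panel. The 6 peaks of each alpha gene up to PCDHAC1 and the 1 of each gamma gene become 3 at PCDHAC1, 3 at PCDHAC2 and 1 at PCDHGC5.

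Starts are not shared between members, so they were counted as a separate measure. A peak within 1000 bp of the start was found for 2 of 53 members (3.77%, 95% Wilson interval 1.04 to 12.8), against a background of 36.3% of protein-coding genes. For genes without a strand in the promoter table, either boundary counted, which added no member. Both members were C-type, and 0 of the 48 alternate members had such a peak (upper Wilson limit 7.41%). Over all 7245 protein-coding genes with a start peak the median maximum coverage was 4, and 37.8% reached 5. PCDHAC1, at 5, was above that median and PCDHAC2, at 3, below it. Seen from the peaks, 2 of the 9 locus peaks lay at a member's start (22.2%, interval 6.32 to 54.7), against a background of 15.7% of 45756 peaks at the start of a protein-coding gene.

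Promoter GC content moved with the presence of a start peak, among the members and across all genes. Alternate members had GC-poor promoters, with a median of 38.7% and a range of 32.3% to 51.3%. The median was 36.0% in the alpha, 40.8% in the beta and 41.0% in the gamma cluster. Within gamma, the A subfamily had a median of 38.3% and the B subfamily 48.3%. The C-type promoters were all richer, with 66.0% in PCDHAC1, 63.0% in PCDHAC2, 60.7% in PCDHGC4 and 59.0% in PCDHGC3. The lowest C-type value was above the highest alternate value. Over 15812 protein-coding genes with a promoter in the table, the median was 62.7%.

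**Figure D3:**
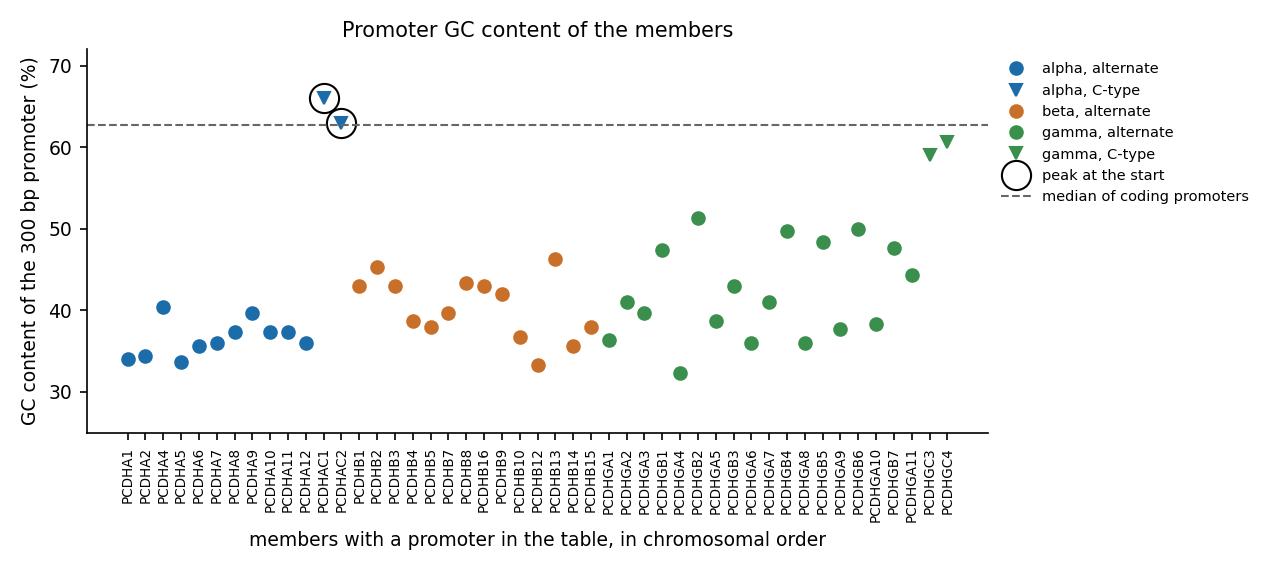
Points give the GC content in percent of the 300 bp RefSeq promoter of each of the 47 matched members in chromosomal order, with triangles for C-type members, rings for members with a peak at the start and a dashed line at the median of protein-coding promoters. The 2 ringed members are the richest, at 66.0% and 63.0%, and the gamma C-type members without a start peak lie at 59.0% and 60.7%.

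Across all protein-coding genes the share with a start peak rose from 5.34% of 918 genes with promoters under 40% GC to 12.5% of 1918 at 40% to under 50%. It was 30.8% of 3546 at 50% to under 60%, and 45.7% of 9430 at 60% or more. The members stood at 0 of 25, 0 of 16, 0 of 3 and 2 of 3 in these classes. Applied to the 47 matched members, the shares per class amount to 5.62 genes with a start peak, where 2 were found. The share over all classes, 36.0%, would amount to 16.9. For the 43 matched alternate members the shares per class amount to 3.94, where 0 were found. Other genes with promoters as poor in GC thus also had few start peaks, and the part of GC content in the members' count was not tested.

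**Figure D4:**
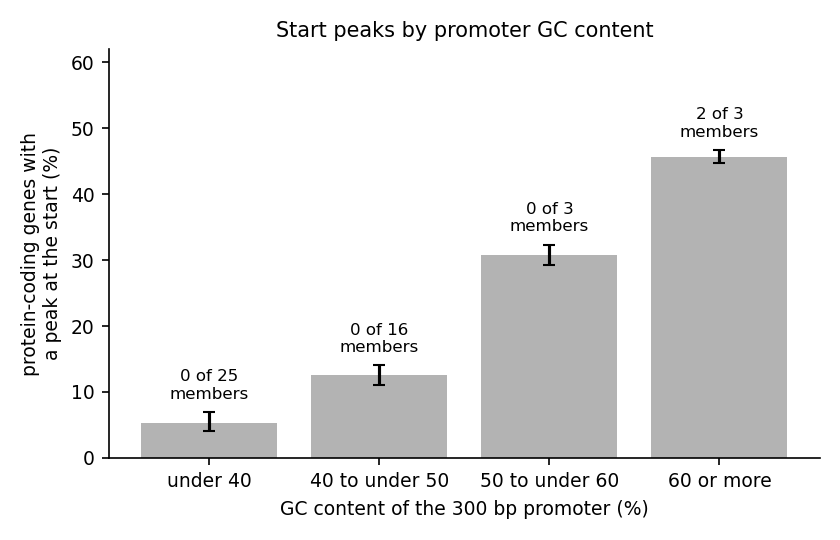
Bars give the percentage of protein-coding genes with an S9.6 peak within 1000 bp of the start in 4 classes of promoter GC content, with 95% Wilson intervals as error bars and the members' counts above them. The share rises from 5.34% to 45.7%, and the only members with a start peak, 2 of 3, are in the richest class.

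A CTCF core, TATAAA, runs of GGG and GC skew did not single out PCDHAC1 and PCDHAC2 among the members. The match around the CGCT core, 25.1% and 37.8%, was lower in both than in the alternate alpha members, where PCDHA12 was lowest (45.7%). Outside the alpha cluster, PCDHGB7 (22.9%) and PCDHB1 (29.4%) were also below PCDHAC2. Motif searches covered both strands. A core of a CTCF site, written as CC, 3 bases of any kind, AGG, 1 base of any kind and GGC, was found in 1 of the 47 promoters, PCDHB9, where it shared 1 base with the CGCT core. This strict pattern was in 4.63% of all promoters. It allows no other base at its fixed positions: PCDHB10, with ccacacggtggC where PCDHB9 has ccacaaggtggC, was not counted. These counts therefore do not tell whether members have fewer CTCF sites than other promoters. Whether the CGCT element is itself part of such a site was not tested. TATAAA was found in 6 of 47 (12.8%), against 11.5% of all and 9.75% of protein-coding promoters, and in none of the C-type promoters. A pattern of 4 runs of GGG with 1 to 7 bases between them, which can form G-quadruplexes, was in 0 of the 47. It was in 30.0% of protein-coding promoters and 34.2% of those with a start peak. Median GC content was 39.7% in the members against 62.7% in protein-coding promoters, and no set matched in GC content was compared. Median GC skew was 0.04 in the members, 0.01 in protein-coding genes with a start peak and 0.01 in those without. A match is a run of letters and not a measured binding site.

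The density of peaks over the locus was close to that of its chromosome. It was 1.24 peaks per 100 kb (exact 95% Poisson interval 0.566 to 2.35), against 1.14 on chromosome 5, which lies within that interval, and 1.51 over chromosomes 1 to 22 and X, taken from the first to the last gene. Peaks covered 0.913% of the locus, 0.844% of chromosome 5 and 1.14% of these chromosomes. The alpha cluster stood at 2.65 per 100 kb (0.973 to 5.77), beta at 0.505 (0.0128 to 2.81) and gamma at 0.548 (0.0139 to 3.05). These intervals overlap, and each includes the value of chromosome 5. In the 500 kb upstream of the locus the density was 2.4 (1.24 to 4.19) and in the 500 kb downstream 4.2 (2.60 to 6.42), whose interval lies above that of the locus. Of the locus peaks, 5 of 9 reached a maximum coverage of 3 (55.6%, interval 26.7 to 81.1), against 45.4% of all peaks. Their median was 3, against 2 for the whole list.

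Neighbouring genes carried start peaks in larger shares than the members. Upstream, 10 of 20 protein-coding genes within 500 kb had a start peak (50%), against a background of 36.3% of all protein-coding genes. Several of these neighbours shared a peak, so the genes are not separate counts. The highest, with a maximum coverage of 9, was counted for SLC35A4, for LOC131768270 with the same span, and for APBB3, which had no strand. A peak of 7 counted for ANKHD1 and its readthrough transcript ANKHD1-EIF4EBP3, and the splicing factor gene IK and NDUFA2, a subunit of respiratory complex I, shared a peak of 3. SLC4A9, CD14 and DND1 had 2. PFDN1, TMCO6, WDR55 and the histidyl-tRNA synthetase gene HARS1 had peaks over their spans without a start peak. Downstream, 6 of 10 had a start peak (60%): DELE1 had 7, the deacetylase gene HDAC3 and RELL2 shared 4, and DIAPH1, PCDH1 and GNPDA1 had 3. ARAP3, PCDH12 and RNF14 had peaks over the span alone. Median promoter GC content was 62.3% upstream and 69.3% downstream, against 39.7% over the matched members. The locus also held 12 noncoding genes and pseudogenes, among them PCDHA14, PCDHB17P and PCDHB1-AS1, and 0 of them had a peak. The share of such genes with a peak elsewhere was not computed, so this count has no background.

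Among genes in other tandem arrays, olfactory receptor genes had a start peak about as rarely. It was found in 12 of 392 (3.06%), with a median promoter GC content of 37.7% and a maximum of 4 at OR1F1, followed by 3 at OR14I1, OR4K1 and OR4K5. Keratin genes, which encode epithelial intermediate filaments, had 13 of 55 (23.6%), with 4 at KRT16 and KRT80 and 3 at KRT8, KRT13, KRT18 and KRT79, and a median of 45.8% GC. HOX genes, the clustered regulators of body axis, had 13 of 39 (33.3%), with 7 at HOXC13, 4 at HOXB2 and 3 at HOXA5 and several HOXB and HOXC genes, and a median of 58.0% GC. Where no strand was given either boundary counted. Of the 19 HOX genes without a strand, 10 had a start peak, against 3 of the 20 with one (15%). For keratins it was 7 of 21 against 6 of 34 (17.6%), and for olfactory receptors 2 of 78 against 10 of 314 (3.18%). How far the rule for genes without a strand raised these counts was not tested. Among the HOX genes with a strand, HOXA11 alone had a peak, of 3, at its other boundary and none at its start. The medians of GC content rest on the genes with a strand. Over all protein-coding genes the start share was 36.3%. By span the shares were 6.89% of olfactory receptor, 41.8% of keratin and 48.7% of HOX genes. The distance between span and start shares, 71.7% against 3.77%, was larger in the clustered protocadherins than in these 3 lists. It rests on the counting rule, since a peak shared by overlapping alpha or gamma spans counts for each of those genes. Median gene lengths in the 3 lists were 2.94, 6.43 and 3.79 kb. These comparisons are descriptions of 1 library and carry no test.

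**Figure D5:**
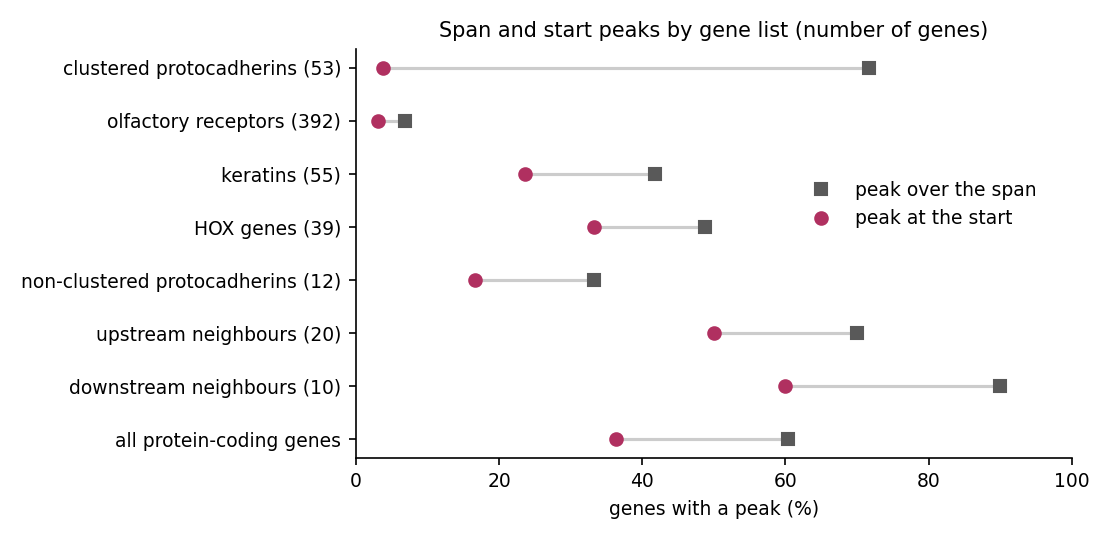
Squares give the percentage of genes with an S9.6 peak over the span and circles that with a peak at the start, for the 53 members, 3 other gene families in tandem arrays, the non-clustered protocadherins, the neighbours within 500 kb and all protein-coding genes. The members lie at 71.7% and 3.77%, olfactory receptors at 6.89% and 3.06%, and all protein-coding genes at 60.4% and 36.3%.

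Factors known to act on protocadherin promoter choice or silencing were examined for peaks at their own genes. Of 22 such genes, 19 had a peak over the span and 11 a start peak, or 86.4% and 50%, against 60.4% and 36.3% of all protein-coding genes. TRIM28, a corepressor recruited by zinc finger proteins, had a maximum coverage of 12, and CTCF and the maintenance methyltransferase DNMT1 had 8 each. STAG1 had 7 and STAG2 6, both subunits of cohesin. SMC3, the cohesin loader NIPBL and the methyltransferase DNMT3A had 3. DNMT3B, another methyltransferase, held 3 peaks over its span and SMCHD1, a silencing factor, held 1, and neither had one at its start. The genes without a peak were EHMT2, PDS5B and RAD21. A peak at a factor's gene is no measure of its level or binding.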

How the data were processed

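The S9.6 library had a deposited peak list without a header. Its signal columns, a total and a maximum coverage per peak, are whole numbers by the authors in the layout of SEACR, and positions are in bp. The submitters' processing notes list, with no roles, SEACR 1.3, Bowtie2 2.4.2, deepTools 3.5.2, bedtools 2.30.0, fastp 0.23.2, SAMtools 1.9 and the build GRCh38. The sources used here do not give the threshold, the use of IgG or how reads that map to several similar members were treated. No peak on the 7 alternate sequences of chromosome 5 had coordinates within the locus.

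Peaks and RefSeq gene spans (GRCh38.p14) were joined in Python 3.11.15 with pandas 2.3.3, 1 base of overlap counting, and 95% intervals were computed with scipy 1.17.1. Overlap calls were checked on made-up genes. The gene and promoter tables give no exons. Members, lists and motifs were chosen with earlier results of these data known. Named were members with a start peak or a peak in their own segment, C-type members, the first and last of each cluster, neighbours with peaks and the 3 highest of each list. Other names were chosen after their values were seen. Other windows, overlap rules, peak heights and locus limits were tried as alternatives. Without replicates no test between conditions was made.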

Additional observations from a re-analysis of the deposited data

How the results depend on the processing

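Of 27 alternative settings over 5 results, 22 stayed within 1.5 times a count or within the interval of a share or density. These criteria are unlike, and the intervals are wide. The same fall from 9 to 5 locus peaks was a change for the count. It was none for the density, where 0.688 per 100 kb lay within 0.566 to 2.35. The 22 is therefore no measure of stability. Members with a start peak were 2 of 53 under windows of 500 and 2000 bp, by summit, by at least 50% of the peak, with peaks of maximum coverage 3 or more, and among the 50% of peaks with the highest total signal. Over all protein-coding genes the share with a start peak ran from 27.7% to 40.7% under these settings. Members with a peak over the span were 37 or 38 of 53, against 44.6% to 59.6% of all protein-coding genes. The count of 37 came with maximum coverage of 3 or more (background 44.6%) and with the highest total signal (45.5%). The share of locus peaks at a start ran from 22.2% to 40%. With peaks of maximum coverage 3 or more, and likewise among the 50% with the highest total signal, the locus held 5 peaks in place of 9, and the peaks at PCDHB13 and between the beta and gamma clusters were absent from both sets. Peaks per 100 kb were 2.65 for the alpha cluster alone, 0.505 for beta and 0.548 for gamma, in place of 1.24. Coverage was shallow, and a start without a peak may have signal under the authors' threshold. No paired analysis was possible because there was 1 library per antibody.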

Other observations

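Protocadherin and cadherin genes outside the clusters were examined with the same rule. Of 12 non-clustered protocadherin genes, 2 had a start peak, PCDH1 and PCDH9 with a maximum coverage of 3 each, and 4 had a peak over the span. These are 16.7% and 33.3%, against 36.3% and 60.4% of all protein-coding genes. PCDH9 held 6 peaks over 928 kb and PCDH15 4 over 1825 kb, while PCDH12 held 1. The other 8 had none. All but PCDH10 and PCDH20 of these had a promoter in the table, with a GC content from 52.7% in PCDH17 to 71.0% in PCDH19. Of 6 giant atypical cadherin genes, FAT1 alone had a start peak, with a maximum coverage of 2. DCHS1 held 3 peaks and FAT3 1 inside their spans.

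Of 23 further cadherin genes, chosen by CDH symbols and including members outside the classical type such as CDH13 and CDH23, 6 had a start peak and 18 a peak over the span. These are 26.1% and 78.3%, below the share of all protein-coding genes by start (36.3%) and above it by span (60.4%). Of the 12 with a strand, 1 had a start peak, and of the 11 without, where either boundary counted, 5 had one. CDH15, a muscle cadherin, had a maximum coverage of 6, and CDH1, which encodes the epithelial E-cadherin, had 4. CDH5, the endothelial cadherin, had 3, as had CDH22 and CDH24, and CDH23 had 2. CDH2, the neural N-cadherin, held 1 peak inside its span and none at its start. Long cadherin genes differed in their number of peaks: CDH4 held 38 over 688 kb and CDH23 37 over 419 kb, whereas CDH18 held 1 over 1104 kb and CDH12 3 over 1103 kb. These are values from 1 library, and longer genes have more room for peaks.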
